A study of Mus musculus with 10 samples.

Results

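Nephron progenitors sorted at birth were compared with nephron progenitors sorted at the start of kidney development. The comparison used 4 of the series' 10 arrays, chosen by sample title. They were 2 arrays of P0 Six2-GFP-positive cells (P0 progenitors) and 2 of freshly sorted E11.5 Six2-GFP-positive cells (E11.5 progenitors). All 10 samples came from Six2-GFP transgenic mice on a C57BL6J/ICR background, and GFP was the only sort marker named. The sources differ, an embryo at E11.5 and a neonate at P0, and the file names call the birth samples E19.5. The labels name no dissected organ, no promoter fragment of the transgene, and no separate litters for the replicates. The p-values therefore measure the spread between these arrays, which may be technical in part. At P0 the 2 progenitor arrays differed in Y-linked transcripts, given in the closing section, so they were not repeats of 1 RNA pool. The other 6 arrays, 2 each of P0 Six2-GFP-negative cells (P0 non-progenitors) and of E11.5 cells after 8 or 19 days of culture, entered the estimate of the spread, and the P0 non-progenitors are given as a level.

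Six2-expressing progenitors form a cap of mesenchyme around the tips of the ureteric bud, the branching tube that becomes the collecting system. Each cell either renews itself or, after a Wnt signal from the bud, switches on Wnt4, forms an epithelial vesicle and becomes the nephron from podocyte to distal tubule. In the mouse the progenitor pool persists from the start of the metanephros until shortly after birth and is then used up, so that the sort at E11.5 holds cells near the beginning of this period and the sort at P0 cells near its end. Levels below are log2 intensities of 1 probe per gene minus the 75th percentile of the array. A level of 0 is therefore the brightness of that percentile, and the level of a gene is compared between arrays; between genes, mean levels serve only to sort probes by brightness. A difference is given as P0 minus E11.5 with its standard error (n = 2 arrays a group), and adjusted p-values are from limma with Benjamini-Hochberg adjustment.

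All 4 arrays lay on 1 slide, 61.3% to 64.9% of their spots were well above background, and no spot was saturated. Replicates differed by a root mean square of 1.22 log2 units at E11.5 and 0.833 at P0. Of 26252 genes tested, 1036 passed at an adjusted p of 0.05 (3.95%), 532 of them higher at P0 (2.03%) and 504 lower (1.92%). An unadjusted p under 0.05 was reached by 4937 genes. The 2 groups did not overlap for any called gene, but neither did they for 52.6% of all genes. Among the called genes the median size of the difference was 1.98 log2 units, and 782 changed by more than 2-fold.

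Calls in the 2 directions lay at different levels. Of genes with a mean level above 4, 11.3% were called lower and 1.19% higher at P0, with a median difference of -0.199, whereas of genes below -4, 0.303% were lower and 2.27% higher, with a median of -0.055. Over all genes the median was -0.125, and it moved to 0.035 when the percentile was taken over probes well above background on all arrays. With that scaling 70.1% of 934 calls were higher and with quantile normalization 66.1% of 944, against 51.4% here. The count depended on single arrays, with 668 calls without E11.5 replicate 1, 871 without E11.5 replicate 2, 120 without P0 replicate 1 and 118 without P0 replicate 2. A fit of the 4 arrays alone made 434 calls, among them 2 higher induction genes, 1 higher Notch gene, 3 lower fetal timing genes, 3 lower imprinted genes, 1 higher fatty acid oxidation gene and 2 higher basement membrane genes. In a fit without 1 array the lone array of a group was assumed to vary like the other groups. A called gene is said below to have kept its call where it passed in all 4 of these fits, as 83 did (58 higher and 25 lower), and every other gene called here lost its call in at least 1 of them.

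**Figure D1:**
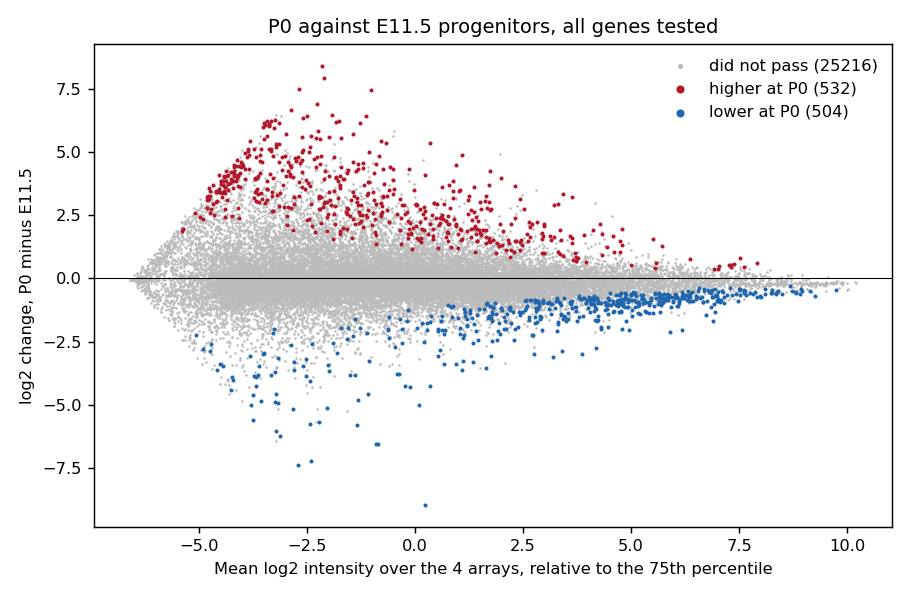
Difference between P0 and E11.5 progenitors (log2, y axis) against the mean level over the 4 arrays (log2 intensity relative to the 75th percentile, x axis) for the 26252 genes tested, 1 point a gene. Red points are the 532 genes called higher at P0 and blue points the 504 called lower; the blue points crowd toward high levels, where 11.3% of genes above a level of 4 were called lower.

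Gene lists are described by how many tested members passed, beside the shares of 2.03% and 1.92% above, and by their median, beside -0.125. They share genes with each other, and several were drawn up with earlier results of these data in view.

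**Figure D2:**
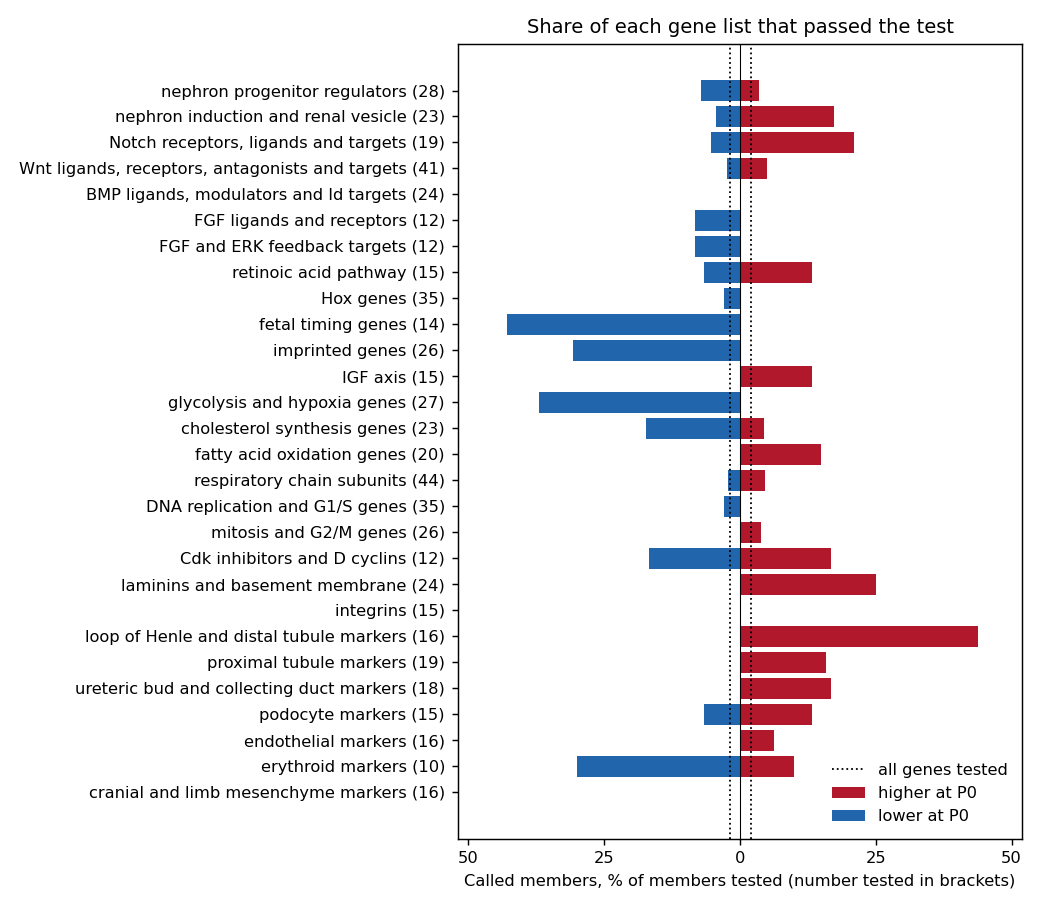
Share of the tested members of 28 gene lists called higher (red, to the right) or lower (blue, to the left) at P0, in percent, with the number tested in brackets. Dotted lines mark the shares over all genes, 2.03% higher and 1.92% lower; the longest bars are those of loop of Henle and distal tubule markers to the right and of fetal timing and glycolysis genes to the left.

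The regulators that define nephron progenitors were present at both ages and most did not pass. Six2 read 4.70 and 4.82 at E11.5 and 4.27 and 4.11 at P0, against -2.26 and -4.54 in P0 non-progenitors, so the sort separated Six2 RNA at P0 as labelled. Its 3 probes differed by -0.57, -1.01 and -1.09 between the ages, all lower at P0. The used one did not pass by limma (adjusted p = 0.717, or 0.117 in the fit of the 4 arrays alone). Of 28 progenitor regulators tested, 1 was higher, 2 were lower and 25 did not pass, with a median of 0.262. Their mean level was 1.39 and 1.45 on the E11.5 arrays, 1.67 and 1.57 on the P0 arrays and -0.58 and -0.67 in P0 non-progenitors.

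Both members that fell were Meox genes, homeobox factors of the early mesoderm. Meox2 read 0.46 and 0.56 at E11.5 and -2.53 and -4.05 at P0, where 1 array detected it (difference -3.80 ± 0.49 SE, adjusted p = 0.0105), and it kept its call. Meox1 read 3.70 and 3.98 against 1.94 and 1.31 (difference -2.22 ± 0.44 SE, adjusted p = 0.0398). Traf1, an adaptor of the tumour necrosis factor receptors, rose from -1.18 and -1.77 to 0.98 and 1.29 (difference 2.62 ± 0.45 SE, adjusted p = 0.0256). The P0 levels of Traf1 lay above both P0 non-progenitor arrays, at -3.06 and -2.58.

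Cited1, a cofactor of the least differentiated progenitors, read 3.00 and 3.64 at E11.5 and 6.03 and 5.53 at P0 and narrowly missed the threshold (adjusted p = 0.0505). The groups did not overlap, and the P0 level was also above that of P0 non-progenitors (1.33 and 0.45). Wt1, needed for survival of the kidney mesenchyme, differed by 0.86 ± 0.24 SE (adjusted p = 0.104). Pax2, a factor of the whole lineage, differed by 0.81 on its used probe and by -0.69 and 0.94 on its 2 others. The differences of Osr1, which marks the intermediate mesoderm (-1.20 ± 0.72 SE), Sall1, a zinc finger factor (0.09 ± 0.72 SE), and Uncx, a homeobox factor (0.52 ± 0.23 SE), also did not pass. Of the secreted factors, Gdnf, which attracts the ureteric bud, differed by 0.80 ± 1.2 SE, Fgf20 by 0.69 ± 1.21 SE and Bmp7 by -0.65 ± 0.39 SE. The wide errors of Gdnf and Fgf20 include the spread of arrays outside the comparison. Gdnf read -1.42 and -0.38 at E11.5 and -0.28 and 0.09 at P0, but -6.34 and -2.43 after 8 days of culture. Fgf20 read 0.19 and -0.55, then 0.95 and 0.07, and -5.67 and -1.30 in that culture. For Eya1 the only probe gave 9.24 to 9.68 on all 6 sorted arrays, P0 non-progenitors included, so that whether it reports Eya1 is not known.

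Cells of other Six2-expressing mesenchyme could be in a sort from embryos, so their markers were read on the same arrays. Of 24 cranial and limb mesenchyme markers, 12 were not well above background on any of the 4 arrays, among them Alx1, Tbx4, Tbx5, Pitx1 and Hand2. None of the 16 tested passed (1 higher and 1 lower at an unadjusted p under 0.05). Their mean level was -3.67 and -2.53 at E11.5 and -3.23 and -3.19 at P0, and the part of such cells in the differences was not tested. Hoxd13, the last gene of its cluster and a factor of the limb and genital buds, read -0.66 and -1.62 at E11.5 and was not well above background at P0, at least 8.88-fold lower (adjusted p = 0.0105). It was the 1 gene called among 35 Hox genes, whose median was 0.228.

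A few early markers of nephron induction were higher at P0. Of 23 tested genes of induction and the renal vesicle, 4 were higher and 1 was lower, with a median of 1.511 (0.398 with normexp), and 19 of the 23 differences were above 0. The count of higher members was 4 without E11.5 replicate 1, 3 without E11.5 replicate 2 and 0 without either P0 array. The arrays measure sorted cells in bulk, so that a change in the share of cells of a type and a change in RNA per cell cannot be told apart.

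Wnt4, the signal that starts the conversion to epithelium, read 1.07 and 2.45 at E11.5, 5.04 and 5.12 at P0, and 1.31 and 1.37 in P0 non-progenitors. Its second probe differed by 2.35, in the same direction as the used one. Jag1, a Notch ligand of the renal vesicle, read -0.44 and -1.16 against 1.87 and 2.44. Ccnd1, a D cyclin of induced cells, read 0.06 and 0.71 against 3.12 on both P0 arrays, and P0 non-progenitors read 3.26 and 2.88, 1 above and 1 below. Cdh6, an early cadherin of the nephron epithelium, rose from -0.28 and -1.44 to 1.41 and 1.92 (difference 2.52 ± 0.42 SE, adjusted p = 0.0238). Against these, Sox9, a factor of the bud tips and of the medial vesicle, fell from 2.20 and 1.86 to 0.32 and -0.20 (difference -1.97 ± 0.33 SE, adjusted p = 0.0229).

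The probes of Lhx1, which marks the renal vesicle, disagreed. The used probe read between 0.58 and 1.47 on the 6 sorted arrays and did not pass (difference 0.60 ± 0.24 SE, adjusted p = 0.233). A second, dimmer probe was not well above background at E11.5 and was so on both P0 arrays, with a difference of 5.68, so the direction is shared and the size is not settled. Pax8, an early induction factor, read 0.26 and 0.12 at E11.5 and 2.51 and 2.91 at P0. It did not pass (difference 2.52 ± 1.12 SE, adjusted p = 0.281), but passed in the fit of the 4 arrays alone (adjusted p = 0.0445) and in those of the 6 sorted arrays or of slide 1 (adjusted p = 0.0172 in both). Over all alternatives its adjusted p ranged from 0.0172 to 1. Papss2, a sulfate donor enzyme of the vesicle, was at least 12.7-fold higher and did not pass (adjusted p = 0.0714).

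Among Notch genes Notch2, Nrarp and Jag1 were higher, and Notch1 on 1 of its probes. The pathway, in which a ligand on 1 cell leads to release of the receptor's inner part in its neighbour, pushes nephron progenitors toward differentiation. Of 19 Notch genes tested, 4 were higher and 1 was lower (median -0.163, with 10 of 19 differences below 0); the count of higher members was 4 without E11.5 replicate 1, 3 without E11.5 replicate 2, 2 without P0 replicate 1 and 1 without P0 replicate 2. Notch2, the receptor that nephron segments need most, read 4.86 and 4.62 at E11.5, 6.16 and 6.42 at P0, and 5.13 and 5.35 in P0 non-progenitors (difference 1.55 ± 0.21 SE, adjusted p = 0.0117). Its second probe differed by 1.44. The P0 progenitor arrays were thus the highest of the 6.

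Notch1 read -4.25 and -5.62 at E11.5 and -0.12 and 0.21 at P0 and kept its call (adjusted p = 0.00379). Its used probe was not well above background at E11.5, however, and its other probe, which was, differed by 0.65, so that the size of the rise is not settled. Nrarp, a feedback inhibitor induced by Notch, was not well above background at E11.5 and was 9.38-fold higher at P0 (adjusted p = 0.0184). Lfng, which modifies the receptors, was at least 7.04-fold higher and did not pass (adjusted p = 0.0564), with P0 levels of -3.58 and 0.28. Of the transcriptional targets, Hey1 differed by 1.05 ± 0.29 SE (adjusted p = 0.102) and Hes1 by -0.86 ± 0.37 SE (adjusted p = 0.266). The member that fell was Dlk1, a non-canonical ligand that is also imprinted and is described with those genes.

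Other pathways that act on progenitors had few calls. Of 41 Wnt genes, 2 were higher and 1 was lower (median 0.218). Besides Wnt4, the receptor gene Fzd6 read -2.59 and -4.58 at E11.5 and 0.83 and 1.07 at P0 (difference 4.54 ± 0.70 SE, adjusted p = 0.0174). Ror2, the receptor of the Wnt5a branch, fell from -0.56 and -0.11 to -2.79 and -3.73 (difference -2.92 ± 0.49 SE, adjusted p = 0.0238). Both P0 values of Ror2 were below all E11.5 values by more than 2 log2 units. None of 24 BMP genes passed by limma (3 higher and 2 lower at an unadjusted p under 0.05); Bmp4, the ligand of stroma and mesenchyme, differed by 1.69 ± 0.56 SE (adjusted p = 0.159).

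FGF signals keep progenitors alive. Fgfr1, the main receptor, was the 1 member called of 12 ligands and receptors (difference -0.62 ± 0.12 SE, adjusted p = 0.033), and its 2 other probes differed by 0.06 and 0.49. Fgf1 read 1.62 and 0.06 at E11.5 and 4.42 and 3.84 at P0 and did not pass (adjusted p = 0.0886). Among 12 feedback targets of FGF and ERK, Dusp6, the ERK phosphatase, fell from 5.42 and 5.09 to 3.91 and 3.93 (difference -1.34 ± 0.14 SE, adjusted p = 0.00647). Il17rd, another inhibitor of the pathway, read 3.33 and 3.86 at E11.5 and 5.13 and 5.22 at P0, the other way, and did not pass (adjusted p = 0.0755). The 12 targets had a median of -0.01, with 6 differences above 0 and 6 below.

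Of 15 genes of retinoic acid handling 3 were called (2 higher, 1 lower, median 0.199). Aldh1a3, which makes retinoic acid, was not well above background at E11.5 (-4.83 and -5.28), read 0.77 and 0.21 at P0 and was at least 31-fold higher (adjusted p = 0.00192), a call it kept. Its probe lies on chromosome 7 from 73535785 to 73535844 (mm9). Rarg, a retinoic acid receptor, was at least 7.74-fold higher (adjusted p = 0.00848). Crabp2, which carries retinoic acid to its receptors, fell from 4.14 and 4.30 to 2.78 and 2.46 (difference -1.60 ± 0.23 SE, adjusted p = 0.0132). Aldh1a2, the enzyme of the embryonic mesoderm, read 4.34 and 4.73 against 5.14 and 5.12 and did not pass (adjusted p = 0.245).

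In the insulin-like growth factor axis 2 of 15 genes were higher and none was lower (0 lower also at an unadjusted p under 0.05). Irs1, which relays signals from the receptors, differed by 5.45 on its used probe (adjusted p = 0.0128) and by 2.36 on its other probe. Igfbp6, a binding protein with preference for Igf2, was at least 14.4-fold higher (adjusted p = 0.0158). Igf2 itself read 5.82 and 5.80 at E11.5 and 5.49 and 5.56 at P0 (adjusted p = 0.614).

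Several genes that mark early developmental time fell. Lin28a and Lin28b block maturation of the let-7 microRNAs, whose targets include Hmga2 and the Igf2bp genes, and their loss accompanies the end of fetal programmes in several tissues. Of 14 fetal timing genes tested, 6 were lower at P0 and none was higher (10 lower and 1 higher at an unadjusted p under 0.05), with a median of -1.565 (-0.973 with normexp). The count was 6 without E11.5 replicate 1, 3 without E11.5 replicate 2 and 1 without either P0 array. Of the 6, Hmga2 kept its call. The microRNAs themselves were not measured. The most cited family member, from RefSeq (GRCm38.p6, chr13:48538239-48538260, minus strand), is shown with its seed, bases 2 to 8, in capitals, because all 9 let-7 and miR-98 names in that table share this seed, with 11 of 1679 mature names in all:
mmu-let-7a-5p: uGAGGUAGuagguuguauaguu

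Hmga2, a chromatin protein of growing fetal cells, read 4.87 and 4.78 at E11.5 and 2.14 and 1.82 at P0 (difference -2.85 ± 0.26 SE, adjusted p = 0.00354). P0 non-progenitors were lower still, at -0.66 and -0.27. Its relative Hmga1 read 5.66 and 5.77 against 4.10 and 3.96 (difference -1.68 ± 0.18 SE, adjusted p = 0.00647), and its other probes differed by -2.29 and -0.39. The probe of Hmga2 lies on chromosome 10 from 119800621 to 119800680 (mm9).

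Igf2bp1, which stabilises growth-related mRNAs, read 3.69 and 4.82 at E11.5 and 1.76 and 0.77 at P0 (difference -2.99 ± 0.53 SE, adjusted p = 0.0287). Igf2bp3, of the same family, fell from 2.46 and 2.52 to -2.02 and -1.52 (difference -4.26 ± 0.74 SE, adjusted p = 0.0264). The third member, Igf2bp2, differed by -0.96 ± 0.33 SE and did not pass (adjusted p = 0.175). Arid3a, a DNA-binding factor of fetal lymphoid cells, fell from 1.49 and 2.63 to -0.58 and -1.40 (difference -3.05 ± 0.45 SE, adjusted p = 0.0148).

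Lin28b read -2.24 and -1.34 at E11.5 and was not well above background at P0 with either of its 2 probes, at least 5.95-fold lower (adjusted p = 0.0211). Lin28a, by contrast, was above background on all 4 arrays and the groups did not overlap: -2.56 and -0.94 at E11.5 against -3.45 and -2.95 at P0 (adjusted p = 0.233). Plag1, a zinc finger factor of fetal growth, differed by -1.73 ± 0.43 SE (adjusted p = 0.077). Trim71, a let-7 target, differed by -0.93 ± 0.26 SE (adjusted p = 0.1) and by -2.49 on its second probe. Mycn, a driver of progenitor proliferation, went the other way, with 5.15 and 4.44 at E11.5 and 5.57 and 5.83 at P0 (adjusted p = 0.108).

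Imprinted genes, which are expressed from 1 parental copy and many of which are tied to fetal growth, were lower at P0 where they were called. Of 26 tested, 8 were lower and none was higher (0 also at an unadjusted p under 0.05), 23 of the 26 differences were below 0, and the median was -0.717. Without E11.5 replicate 1 the count was 4, without E11.5 replicate 2 it was 6, without P0 replicate 1 it was 1 and without P0 replicate 2 it was 2. Peg10 kept its call.

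Peg10, a gene of retroviral origin expressed from the paternal copy, read 2.41 and 2.32 at E11.5 and -3.87 and -4.49 at P0 (difference -6.54 ± 0.36 SE, adjusted p = 0.000663). P0 non-progenitors read 1.43 and 1.48, so the P0 progenitor arrays were the lowest of the 6 sorted arrays by more than 5 log2 units. The used probe lies on chromosome 6 from 4704589 to 4704648 (mm9) and was detected on 1 P0 array. The second probe was detected on both E11.5 arrays and neither P0 array. Cdkn1c, a Cdk inhibitor expressed from the maternal copy, showed the same order: 3.08 and 2.40 at E11.5, -0.58 and -0.46 at P0, and 2.20 and 2.08 in P0 non-progenitors (difference -3.26 ± 0.45 SE, adjusted p = 0.012).

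Dlk1 fell from 2.44 and 3.33 to -1.24 and -0.21 (difference -3.61 ± 0.45 SE, adjusted p = 0.00936), and its second probe, detected at E11.5, was not detected at P0. Magel2, a partner of ubiquitin ligases, fell from 1.79 and 1.28 to -1.51 and -2.99 (adjusted p = 0.0204), and Zim1, a zinc finger gene beside Peg3, was at least 12.6-fold lower (adjusted p = 0.0253). Asb4, a ubiquitin ligase adaptor, fell from 1.32 and 1.80 to -0.56 and -0.43 (difference -2.06 ± 0.26 SE, adjusted p = 0.0105), and its second probe was detected at E11.5 and not at P0.

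Smaller falls were those of Nnat, a membrane proteolipid, which read 4.86 and 5.08 against 3.29 and 3.42 (adjusted p = 0.0256), and Peg3, a zinc finger factor, with -1.27 ± 0.24 SE and -1.25 on its second probe (adjusted p = 0.0356). Among members that did not pass, Usp29 spanned -1.70 to 0.32 at E11.5 and -5.92 to -2.66 at P0 (adjusted p = 0.149). Plagl1, a zinc finger factor that binds many other imprinted genes, differed by -0.85 ± 0.35 SE (adjusted p = 0.241) and read 6.73 and 6.62 in P0 non-progenitors. Grb10, an inhibitor of growth factor receptors, differed by -0.60 ± 0.25 SE (adjusted p = 0.257).

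**Figure D3:**
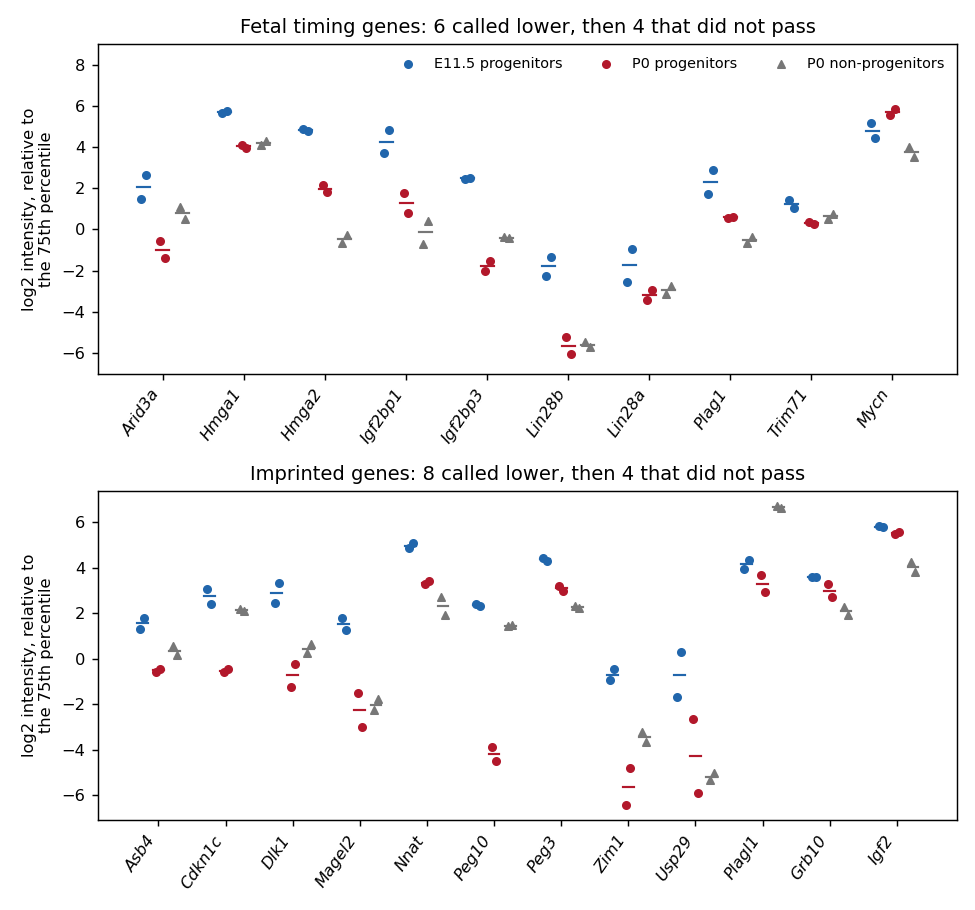
Levels (log2 intensity relative to the 75th percentile, y axis) of fetal timing genes (top) and imprinted genes (bottom) on each array of E11.5 progenitors (blue circles), P0 progenitors (red circles) and P0 non-progenitors (grey triangles), with a dash at each mean of 2 arrays. In each panel the genes called lower stand left and 4 that did not pass stand right; Peg10 read -3.87 and -4.49 in P0 progenitors and above 1 on the 4 other arrays.

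Several enzymes of glycolysis, the breakdown of glucose to pyruvate and lactate, were lower at P0. Of 27 glycolysis and hypoxia genes tested, 10 were lower and none was higher, with a median of -0.884 (13 lower and 2 higher at an unadjusted p under 0.05). Most of the called enzymes are among the brightest probes, where calls in this direction were common. Of members above a level of 4, 7 of 9 were called lower with a median of -1.315, beside 11.3% and -0.199 for all genes at that level. Of members between 2 and 4, 3 of 6 were lower, beside 3.33%. The count stayed at 10 with quantile normalization, with the percentile over detected probes and with normexp, but was 5 without the intensity trend, 7 without E11.5 replicate 1, 8 without E11.5 replicate 2, 5 without P0 replicate 1 and 3 without P0 replicate 2. Aldoa, Ldha and Pgk1 kept their calls.

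At the entry of the pathway Slc2a1, the glucose transporter, read 3.85 and 3.52 at E11.5 and 1.93 and 2.01 at P0 (difference -1.72 ± 0.28 SE, adjusted p = 0.0199). Pfkl, the committing phosphofructokinase, fell from 4.12 and 4.28 to 2.41 and 2.43 (difference -1.78 ± 0.32 SE, adjusted p = 0.0304). Aldoa, which splits the hexose, read 7.67 and 7.78 against 6.14 and 5.97 (difference -1.68 ± 0.15 SE, adjusted p = 0.0034). In each case the lower of the E11.5 arrays was more than 1 log2 unit above the higher of the P0 arrays.

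In the later steps Tpi1 differed by -1.16, Gapdh by -0.96, Pgk1 by -1.33, Pgam1 by -0.88, Eno1 by -1.41 and Pkm by -1.31, with adjusted p-values from 0.00379 (Pgk1) to 0.017 (Pgam1). The 8 probes of Gapdh differed by -0.56 to -1.02 and both probes of Pgk1 by -1.33 and -1.34. Ldha, which turns pyruvate into lactate, read 7.21 and 7.20 at E11.5 and 5.16 and 5.15 at P0 (difference -2.05 ± 0.11 SE, adjusted p = 0.000663). Its 3 probes differed by -2.05, -1.80 and -2.23. P0 non-progenitors read 5.74 and 5.45, so both groups of cells at birth lay below E11.5. The used Ldha probe lies on chromosome 7 from 54110937 to 54110996 (mm9).

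Other members did not pass. Hk2, a hexokinase, differed by -1.76 ± 0.45 SE (adjusted p = 0.085) and Slc16a3, the lactate exporter, by -2.15 ± 0.47 SE (adjusted p = 0.0548). In the other direction Aldoc, the aldolase of brain, differed by 2.30 ± 0.55 SE (adjusted p = 0.067) and Ndrg1, a gene induced by low oxygen, by 1.72 ± 0.38 SE (adjusted p = 0.0536). Neither Hif1a, the hypoxia factor itself, nor Vegfa, its secreted target, passed (differences of -0.37 and -0.77).

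Many glycolysis genes carry the core of the hypoxia response element, ACGTG, near their start. The motif was searched on both strands in the 250 bases before each start in RefSeq (GRCm38.p6); a palindromic CACGTG counts once on each strand. It occurred before 6 of the 10 genes called lower and before 9 of the 15 that did not pass and had a promoter in the table, beside 18.5% of 27025 gene symbols; a gene counts if any of its promoters holds the motif. The share was thus the same in genes that were called and genes that were not, and a match shows letters, not binding. Shown because they hold the motif in 3 arrangements are the last 160 bases before the start of 3 genes that fell, with each match in capitals: Ldha at chr7:46845644-46845803 (plus strand), Pgk1 at chrX:106186940-106187099 (plus strand) and Slc2a1 at chr4:119108585-119108744 (plus strand).
Ldha: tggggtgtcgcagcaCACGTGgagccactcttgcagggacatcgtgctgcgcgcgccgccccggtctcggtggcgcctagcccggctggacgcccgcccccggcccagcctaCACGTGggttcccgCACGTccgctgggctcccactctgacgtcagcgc
Pgk1: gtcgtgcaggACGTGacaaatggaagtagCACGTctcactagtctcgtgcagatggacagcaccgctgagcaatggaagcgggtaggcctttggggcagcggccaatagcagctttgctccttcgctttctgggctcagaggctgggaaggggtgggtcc
Slc2a1: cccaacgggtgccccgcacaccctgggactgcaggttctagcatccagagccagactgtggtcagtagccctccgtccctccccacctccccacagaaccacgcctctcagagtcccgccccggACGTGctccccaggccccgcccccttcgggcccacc

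Fatty acid oxidation, the burning of fatty acids in mitochondria, moved the other way for the few members called. Of 20 genes tested, 3 were higher and none was lower (9 higher and 0 lower at an unadjusted p under 0.05), 17 differences were above 0 and the median was 0.854 (0.445 with normexp). The count was 2 without E11.5 replicate 1, 5 without E11.5 replicate 2 and 1 without either P0 array. Cpt1a, the gate for fatty acids into mitochondria, read -1.01 and -0.38 at E11.5 and 2.77 and 2.16 at P0 (difference 3.16 ± 0.50 SE, adjusted p = 0.0196), and its second probe was not detected at E11.5 and was detected on both P0 arrays. Acaa2, the last enzyme of the cycle, rose from 1.75 and 1.93 to 4.75 and 4.83 (difference 2.96 ± 0.24 SE, adjusted p = 0.00233) and kept its call.

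Acaa2 read 4.26 and 3.74 in P0 non-progenitors, so P0 progenitors were the highest of the sorted cells for this gene. Etfa, an electron carrier, differed by 0.84 ± 0.15 SE (adjusted p = 0.0296), and by -0.25 on its second probe. Ppargc1a, the coactivator of mitochondrial genes, differed by 2.03 ± 0.49 SE (adjusted p = 0.0713) and Pdk4, which diverts pyruvate from the mitochondria, by 2.28 ± 0.57 SE (adjusted p = 0.0758). The proximal tubule also uses this pathway. Its markers had a mean level of -3.78 and -3.96 at E11.5, -2.01 and -2.56 at P0 and 1.81 and 2.03 in P0 non-progenitors, and their part in these rises was not tested.

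The respiratory chain itself showed no common direction. Of 44 subunits, 2 were higher and 1 was lower, with a median of 0.05. Cox5b of complex IV rose from 4.01 and 4.18 to 5.2 and 5.06 (difference 1.04 ± 0.14 SE, adjusted p = 0.0117), and Cox4i1 of the same complex differed by 0.77 ± 0.12 SE (adjusted p = 0.0182). Atp5g1, of the ATP synthase ring, differed by -0.70 ± 0.10 SE (adjusted p = 0.0159) and by -0.04 on its second probe, and the lower call was absent with the mean of all probes and with the percentile over detected probes.

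Cholesterol synthesis had 4 members lower and 1 higher of 23, with a median of -0.565. Only 1 lower call was left with quantile normalization or with the percentile over detected probes, 1 without either E11.5 array and 0 without either P0 array. Fdps, which makes farnesyl diphosphate, differed by -1.17 (adjusted p = 0.0473). Fdft1, squalene synthase, differed by -1.28 on its used probe (adjusted p = 0.0481) while a dimmer probe, not detected at E11.5, was detected on both P0 arrays. Sc5d, a late desaturase, rose from -1.40 and -1.23 to 0.38 and 0.84 (adjusted p = 0.0446).

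**Figure D4:**
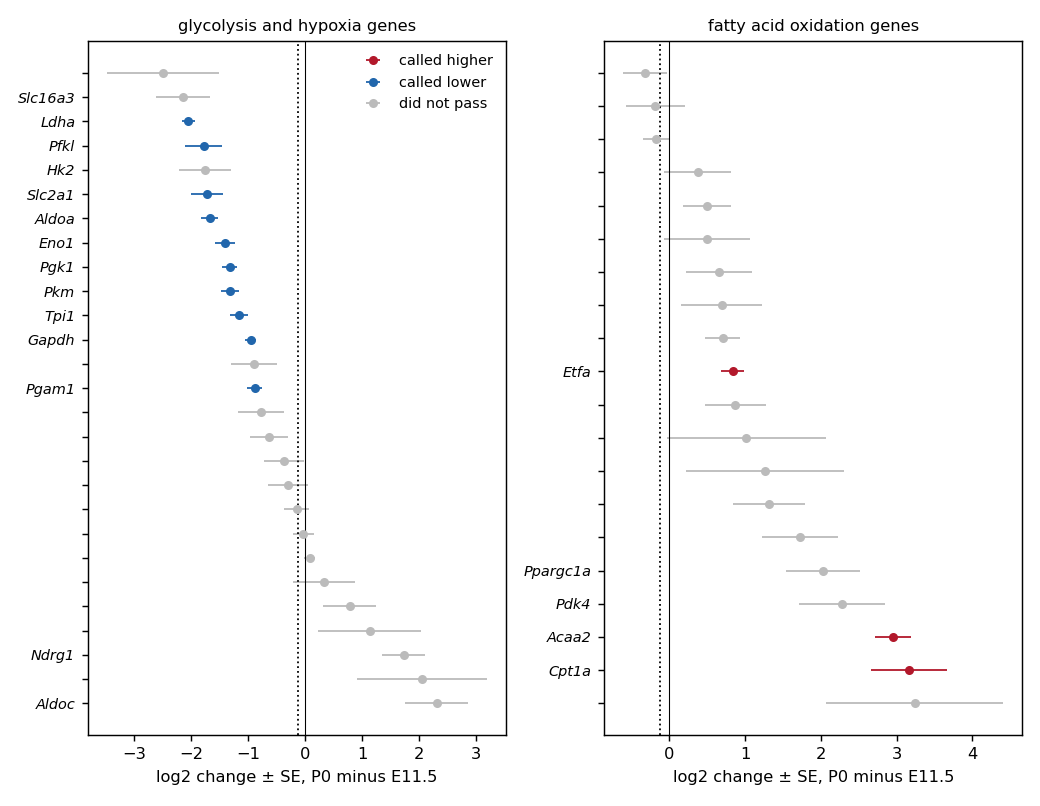
Difference between P0 and E11.5 progenitors (log2, x axis) of each tested member of 2 metabolic lists, with the standard error as a bar; the called genes and some of the others are named; red and blue mark members called higher and lower, grey those that did not pass, and the dotted line the median of all genes, -0.125. Glycolysis has 10 blue points and no red one, and fatty acid oxidation 3 red points and no blue one.

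Several components of the basement membrane, the sheet that epithelia lay down, were higher at P0. Of 24 laminin, collagen IV and related genes, 6 were higher and none was lower (14 higher and 1 lower at an unadjusted p under 0.05), 21 differences were above 0 and the median was 1.354. The count was 5 without E11.5 replicate 1, 8 without E11.5 replicate 2, 2 without P0 replicate 1 and 1 without P0 replicate 2. Col4a2, an alpha chain of the common collagen IV network, read 0.21 and 0.36 at E11.5 and 3.12 and 3.01 at P0 (difference 2.78 ± 0.19 SE, adjusted p = 0.0014) and kept its call. Its partner chain Col4a1 read -0.18 and 0.54 against 2.41 and 2.56 (adjusted p = 0.017). For both chains the P0 arrays stood more than 1 log2 unit above the E11.5 arrays.

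Lamc1, the gamma chain shared by most laminins, rose from 1.87 and 1.55 to 3.82 and 4.04 (difference 2.22 ± 0.26 SE, adjusted p = 0.00854). Lama4, an alpha chain of vessels and mesenchyme, read -0.63 and -2.06 against 3.07 and 4 (adjusted p = 0.00838), and Hspg2, which encodes perlecan, differed by 1.34 ± 0.20 SE (adjusted p = 0.0158). Npnt, the ligand of integrin alpha 8 on progenitors, differed by 5.54 on its used probe (adjusted p = 0.0225) and by 0.53 on its other probe. All 6 called genes except Lama4 were higher still in P0 non-progenitors on both arrays, for example Lamc1 at 4.26 and 4.28. Lamb1, the common beta chain, and Fras1, which joins epithelium to mesenchyme, differed by 1.22 and 2.35 and did not pass (adjusted p = 0.0793 and 0.0521). Of 15 listed integrins, receptors for these proteins, none passed by limma (2 higher and 0 lower at an unadjusted p under 0.05). The list leaves out the integrin subunit Itga11, which was called higher, as was the laminin receptor Bcam. Both are given among the largest changes.

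Of 21 other collagens 3 were higher (median 0.442, or 0.099 with the mean of all probes). Col1a2, a fibrillar collagen of stroma, rose from -0.94 and -0.27 to 2.34 and 1.29 (adjusted p = 0.0443) and read 5.81 and 5.94 in P0 non-progenitors. Col12a1 was called higher (adjusted p = 0.0182) on a probe not detected at E11.5, and its other probe, detected on all 4 arrays, differed by -0.78, so its direction is not settled. Col13a1 was at least 6.78-fold higher (adjusted p = 0.036). Renal stroma and mural markers had a mean level of -1.49 and -1.71 at E11.5, -0.98 and -1.04 at P0 and 2.35 and 2.12 in P0 non-progenitors. Of 19 such markers 2 were higher and 1 was lower, namely Meis1, and Pdgfra, Tbx18 and Lum were not well above background on any of the 4 arrays. Of these stromal markers 13 were well above background on both E11.5 arrays and 16 on both P0 arrays. Their part in the matrix genes was not tested.

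Cell cycle genes were mostly not called. Of 35 genes of DNA replication, 25 differences were below 0 and the median was -0.487, but only Rrm2, a subunit of ribonucleotide reductase, fell, from 5.08 and 4.96 to 3.56 and 3.99 (adjusted p = 0.0148). Of 26 mitosis genes the median was -0.282, and the 1 member called was higher. This was Mki67, the proliferation antigen, with 2.51 and 2.98 at E11.5 and 4.43 and 4.40 at P0 (difference 1.67 ± 0.27 SE, adjusted p = 0.02) and 1.37 on its second probe. Top2a, a topoisomerase of the same cell cycle phase, differed by -1.05 ± 0.35 SE (adjusted p = 0.163).

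Regulators of the G1 phase changed in both directions, 2 higher and 2 lower of 12. Cdkn2c, a Cdk4 and Cdk6 inhibitor, was not well above background at E11.5, read -1.14 and 0.52 at P0, and was at least 17.9-fold higher (adjusted p = 0.00329), a call it kept. Cdkn1c fell as given above. Ccnd3 differed by -0.83 ± 0.16 SE (adjusted p = 0.036) while Ccnd1 rose. Ccnd2, the other D cyclin, read 3.53 and 2.44 against 1.07 and 1.40 and did not pass (adjusted p = 0.286).

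Among 22 chromatin genes 1 was higher and 1 was lower. Mtf2, a Polycomb accessory factor, fell from 3.57 and 3.44 to 1.08 and 1.1 (difference -2.42 ± 0.24 SE, adjusted p = 0.00489), and by -1.18 on its second probe. Cbx6, a Polycomb reader, rose from 1.27 and 1.1 to 2.74 and 2.44 on its used probe (adjusted p = 0.0105), while its 2 other probes differed by -0.09 and 0.44. With the mean of all probes neither call was made. Uhrf1, which guides maintenance methylation, differed by -1.34 ± 0.33 SE (adjusted p = 0.0731).

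Of 24 immediate early and heat shock genes, which respond to handling as well as to growth signals, 1 was higher and 2 were lower, with a median of -0.378. The chaperones Hsph1 (difference -1.90 ± 0.32 SE, adjusted p = 0.0222) and Hsp90aa1 (difference -1.27 ± 0.12 SE, adjusted p = 0.00437) fell, the latter with 0.08 on its other probe, and the small heat shock protein gene Hspb1 rose from -2.52 and -2.17 to 1.95 and 0.31 (adjusted p = 0.0227). In the interferon and MHC class I list 2 of 25 were higher, Ifi27 (difference 3.08 ± 0.56 SE, adjusted p = 0.0301) and Bst2 (difference 1.48 ± 0.26 SE, adjusted p = 0.0256). None of 20 p53 targets passed by limma (4 higher and 0 lower at an unadjusted p under 0.05). Ddit4, an inhibitor of mTOR induced by stress, fell from 4.32 and 3.60 to 2.44 and 1.44 (adjusted p = 0.0251), the 1 call among 17 mTOR regulators.

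Some markers of differentiated nephron segments were higher in P0 progenitors. Of 16 loop of Henle and distal tubule markers 7 were higher and none was lower, with a median of 2.281 (0.971 with normexp), and 5 of the 7 (S100g, Slc12a1, Tfap2b, Tmem52b and Umod) kept their calls. No probe of these 5 was well above background on either E11.5 array, and where detection on all 4 arrays was required none of the 7 could be tested. Umod, the kidney's most abundant urinary protein, was at least 14.4-fold higher at P0, and Slc12a1, the salt transporter of the thick ascending limb, at least 16.6-fold (adjusted p = 0.00458 and 0.00257). The loop markers had a mean level of -4.69 and -4.15 at E11.5, -0.70 and -1.79 at P0 and 1.17 and 1.49 in P0 non-progenitors. Fxyd2, a subunit of the sodium pump, was not well above background at E11.5 and was 86.5-fold higher at P0 (adjusted p = 0.0137). S100g, which binds calcium in distal tubule cells, read 2.80 and 2.62 at P0 and was at least 137-fold higher (adjusted p = 0.00147). Tfap2b, a distal tubule factor, was at least 15.5-fold higher (adjusted p = 0.00192), with -0.12 and -0.90 in P0 progenitors against 3.79 and 3.85 in P0 non-progenitors.

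The same order held for ureteric bud and collecting duct markers, of which 3 of 18 were higher (median 1.293, with 0.236 under normexp, 0.675 without E11.5 replicate 1 and 0.445 without P0 replicate 1): -4.15 and -3.58 at E11.5, -1.68 and -2.52 at P0, and 1.01 and 0.66 in P0 non-progenitors. Scnn1g, a subunit of the epithelial sodium channel, was at least 9.11-fold higher and kept its call (adjusted p = 0.00233). Aqp3, a water channel of the collecting duct, rose from -3.25 and -2.59 to -0.20 and -0.37 (adjusted p = 0.0107), against 3.80 and 3.26 in P0 non-progenitors. Where detection on all 4 arrays was required 1 higher call was made. Ret and Upk1b were not well above background on any of the 4 arrays, while 8 of the 19 markers with a probe were so on both E11.5 arrays and 13 on both P0 arrays. Tfcp2l1, a collecting duct and distal factor whose used probe lies on chromosome 1 from 120581646 to 120581705 (mm9), was at least 91.2-fold higher on that probe (adjusted p = 0.000204) and kept its call. Its second probe, also not detected at E11.5, differed by 2.82 against 8.39 on the used one, so the size of the rise is not settled. For proximal tubule markers 3 of 19 were higher (median 0.88, or 0.228 with normexp), namely Spp2, a secreted phosphoprotein that kept its call, Pck1 of glucose synthesis (at least 13.9-fold, adjusted p = 0.0159) and Slc27a2, a fatty acid carrier (at least 5.99-fold, adjusted p = 0.00858). None of the 3 was detected at E11.5, so that none could be tested where detection on all 4 arrays was required. Hnf4a, the master factor of that segment, Slc22a8, Slc7a13 and Slc13a1 were not above background on any of the 4 arrays. Of the 20 proximal markers with a probe, 8 were well above background on both E11.5 arrays and 14 on both P0 arrays.

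Of 15 podocyte markers 2 were higher and 1 was lower. The lower one was Cdkn1c and the higher ones were Npnt and Podxl, of which Podxl was not well above background at either age. Podocyte markers had a mean level of -1.42 and -1.29 at E11.5, -0.49 and -0.27 at P0 and 2.08 and 2.11 in P0 non-progenitors. P0 progenitors thus lay between E11.5 progenitors and P0 non-progenitors for the loop, collecting duct, proximal and podocyte lists on every array. Transcripts of nephron cells that retain GFP, of GFP-negative cells caught in the sort and of the progenitors themselves cannot be told apart.

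Markers of vessels, leukocytes and nerve had few calls. Of 16 endothelial markers Cldn5 was higher (-3.62 and -3.43 against -0.27 and 0.41, adjusted p = 0.00429) and kept its call. Tie1, Esam, Sox18, Robo4 and Erg were not well above background on any of the 4 arrays, while 6 of the 16 were so on both E11.5 arrays and 7 on both P0 arrays. Of 17 macrophage and leukocyte markers Tyrobp was lower (0.55 and -1.16 against -2.96 and -4.44, adjusted p = 0.043). Mrc1, S100a8, S100a9 and Cd52 were not well above background on any of the 4 arrays. Of the 17, 10 were well above background on both E11.5 arrays and 9 on both P0 arrays. None of 14 neural and neural crest markers passed by limma (0 higher and 2 lower at an unadjusted p under 0.05).

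Globins are made by red cells, with embryonic forms in those of the yolk sac and adult forms in later ones; what blood cells contributed to these arrays was not tested. Hba-x, the embryonic alpha globin, read 1.97 and -0.03 at E11.5 and was at least 40.2-fold lower at P0 (adjusted p = 0.00377). The embryonic beta globin Hbb-y read 5.51 and 3.87 at E11.5, was not well above background at P0 and was 491-fold lower (adjusted p = 0.00329). Hba-x and Hbb-y kept their calls. Hbb-bh1, also an embryonic beta globin, read 1.40 and -1.87 and was at least 17.4-fold lower (adjusted p = 0.0363). The 1 higher member was adult Hbb-b2, with -3.24 and -2.32 against -0.04 and 0.31 (adjusted p = 0.0254). Adult Hba-a1 read 3.73 and 2.46 at E11.5, 3.77 and 3.04 at P0, and 9.27 and 9 in P0 non-progenitors. Erythroid markers had a mean level of 0.57 and -1.38 at E11.5 and -1.34 and -1.49 at P0, and 3 of the 10 tested were lower and 1 was higher. E11.5 replicate 1 stood above the other 3 arrays, and Gata1, Epb42, Rhag and Ahsp were not well above background on any of the 4. Of the 16 erythroid markers with a probe, 7 were well above background on both E11.5 arrays and 7 on both P0 arrays.

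**Figure D5:**
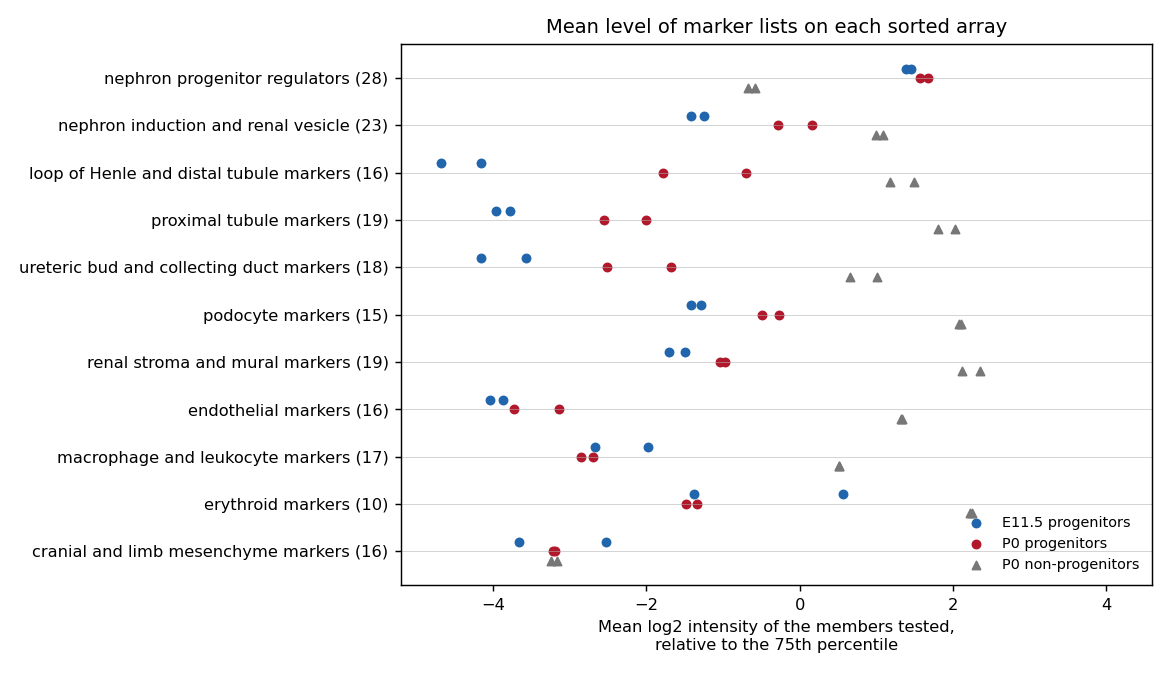
Mean level (log2 intensity relative to the 75th percentile, x axis) of the tested members of 11 lists, with their number in brackets, on each array of E11.5 progenitors (blue circles), P0 progenitors (red circles) and P0 non-progenitors (grey triangles). For loop markers the means were -4.69 and -4.15, -0.70 and -1.79, and 1.17 and 1.49 in that order, while progenitor regulators were lowest in P0 non-progenitors, at -0.58 and -0.67.

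The largest changes with all 4 arrays above background included genes outside these lists. Rabac1, an adaptor of vesicle transport, rose from -1.63 and -0.92 to 3.30 and 3.11 (difference 4.48 ± 0.38 SE, adjusted p = 0.00269), with 2.08 on its second probe, and Pmp22, a membrane protein of growth-arrested cells, from -3.27 and -3.69 to 0.59 and 1.61 (adjusted p = 0.00354). Bcam, a laminin receptor, rose from -2.84 and -3.90 to 0.95 and 1.03 (adjusted p = 0.00437). These 3 genes kept their calls. Cyria, which restrains the Rac pathway, and Evpl, a desmosome-linked protein, kept theirs as well (adjusted p = 0.00243 and 0.00741). Another detected probe of Cyria differed by 2.21, against 5 on the used one.

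For some genes that rose, the P0 progenitor arrays also read above P0 non-progenitors, a difference that was not tested. Itga11, a collagen-binding integrin subunit, read -4.01 and -3.80 at E11.5, 0.69 and 0.29 at P0, and -2.81 and -3.09 in P0 non-progenitors (adjusted p = 0.0198). C1ql4, a secreted C1q-like protein, read -3.26 and -3.23 against 0.90 and 2.31, with -1.23 and -4.11 in P0 non-progenitors (adjusted p = 0.0294). Rnase12 read -2.20 and -2.38 against 2.17 and 1.87, with -1.25 and -1.16 (adjusted p = 0.0014), and kept its call. Gm567 read -3.36 and -3.60 against 0.65 and 1.05, with -2.17 and -3.19 (adjusted p = 0.0141). Sema3g, a guidance ligand, differed by 5.33 on its used probe and by 0.48 on its other. Mt1, a metallothionein, likewise differed by 4.41 and -0.50.

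Among genes not well above background at E11.5, Rnase4, a secreted ribonuclease, was at least 80.1-fold higher, with 1.49 and 2.23 at P0 (adjusted p = 0.000663). Tmem63a, a stretch-activated ion channel, was at least 56.1-fold higher (adjusted p = 0.00329). Both kept their calls. Tm4sf1, a tetraspanin-like surface protein, was at least 54.3-fold higher and read higher still in P0 non-progenitors, at 4.72 and 4.75.

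The largest falls were in genes at a level near or above 0 at E11.5. Zmat4, a zinc finger gene, fell from 0.94 and 1.23 to -3.85 and -3.60 (difference -4.81 ± 0.47 SE, adjusted p = 0.00437) and kept its call. Moxd1, a monooxygenase of neural crest and mesenchyme, fell from 2.78 and 2.38 to -1.90 and -2.89 (adjusted p = 0.0234). Crispld2, a secreted protein, fell from 0.75 and 1.64 to -3.78 and -2.94 and read 1.07 and 0.19 in P0 non-progenitors (adjusted p = 0.012), and its second probe differed by -1.87.

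Grin2a, a glutamate receptor subunit, fell from -0.05 and 0.89 to -2.90 and -3.90 (adjusted p = 0.0106). Meis1, a homeobox partner of Hox proteins and a stromal marker, fell from 3.34 and 1.92 to -1.15 and -0.34 (difference -3.37 ± 0.53 SE, adjusted p = 0.019). Ak4, a mitochondrial adenylate kinase induced by low oxygen, fell from 3.03 and 2.95 to -0.15 and -0.46 (adjusted p = 0.0185), and P0 non-progenitors read 2.13 and 1.35. Arl4d, a small GTPase, fell from 1.66 and 3.08 to -1.09 and -0.95 (adjusted p = 0.0324). Dusp9, an ERK phosphatase, fell from 0.33 and 0.80 to -2.20 and -3.15 (adjusted p = 0.0417). Crmp1, a cytoskeletal protein of neurons, was at least 52.1-fold lower (adjusted p = 0.000771) and kept its call, with 1.48 and 1.62 at E11.5 and no probe above background at P0. Fndc3c1 and 1700003G18Rik were at least 47.1-fold and 28.1-fold lower (adjusted p = 0.0199 and 0.0196).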

How the data were processed

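RNA from FACS-sorted Six2-GFP cells was amplified (Ovation Pico WTA), labelled with Cy3 and hybridised to 1-colour Agilent arrays, per the labels' protocols. The deposited values are spot intensities, which per the file headers Feature Extraction 11.5.1.1 had background-corrected; the number of arrays limits their precision. Here log2 intensity minus the 75th percentile of the 59305 non-control spots of each array was used, with spots of 1 probe averaged and outlier-flagged spots left missing. Names of 28354 of 55681 probes came from RefSeq accessions, 3190 from symbols, 271 from synonyms and 23866 from the files; 1 file, resaved with 3 significant digits, gave 62 other names. A gene is its probe with the highest mean and was tested if well above background on both arrays of a group.

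limma 3.58.1 (R 4.3.3) fitted all 10 arrays with an intensity trend, 2-sided, called at an adjusted p of 0.05. The self-test used simulated data. For a gene without a detected probe in 1 of the groups (none well above background), the fold is the other group's mean over the dim group's. Dim values were raised to the lowest signal of a detected probe on each array, and the fold is then "at least". Where both dim values already lay above that signal, nothing was raised and the fold is a plain estimate. Neither kind of fold takes the spread into account.

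Named genes were the 12 largest rises and falls on 4 detected arrays, the 6 largest bounds each way, and from each described list up to 6 called genes and 4 that did not pass by smallest p, with progenitor regulators, globins and undetected markers. Members and lists were chosen with earlier results of these data known; genes named outside this rule, such as Hif1a and the families in the closing section, were chosen after their values were seen. Of the 45 lists, those without a described result are in the plot of list shares or were not used here. Alternatives numbered 20. Over all genes, replicate numbers did not pair the E11.5 and P0 progenitor arrays (correlation of deviations -0.001, with 2 pairs). Between any 2 groups of the series this correlation was -0.014 to 0.028. Y-linked transcripts, however, followed the number in both P0 groups, as given in the closing section. Probe positions are those of the files (mm9); sequences are RefSeq's (GRCm38.p6). Results of some members are not reported here.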

Additional observations from a re-analysis of the deposited data

How the results depend on the processing

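Against 1036 calls (532 higher, 504 lower), 447 were made without the intensity trend (304 higher, 143 lower), 434 from the 4 arrays alone (179 and 255) and 99 against a threshold of 1 log2 unit (81 and 18). Leaving out 1 array gave 118 to 871 calls, 81 to 552 of them higher and 36 to 319 lower. Lower calls numbered 320 with quantile normalization and 279 with the percentile over detected probes; higher calls numbered 336 with genes detected on all 10 arrays and 326 with genes detected on all 4. The replicate block, for the replicate numbers of the labels, gave 785 calls. No called gene changed sign except 10 under the mean of all probes, among them Fdft1 (0.18). Single probes were less uniform: 280 called genes had another probe detected on all 4 arrays. In 220 of these 280 genes (78.6%) every such probe had the direction of the used one. Of genes that did not pass, Eya1 turned to 0.02 with quantile normalization, and with 1 array left out Sall1 ranged from -0.17 to 0.34, Hba-a1 from -0.33 to 0.94, Hba-a2 from -0.64 to 0.97, Hbb-bt from -0.37 to 5.08, Xist from -0.66 to 1.16, Tsix from -0.35 to 0.73, Ddx3y from -5.84 to 0.51 and Kdm5d from -1.98 to 1.25; the cause was not tested. With 2 arrays a group, small differences of dim probes are not resolved.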

Other observations

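Several gene families, picked after their values were seen and so without a test of the family, moved in part. Beside them, 2.03% of all genes tested were higher and 1.92% lower, with a median of -0.125. Of 16 genes named S100, a family of small calcium-binding proteins, 6 were higher at P0 and none was lower, with a median of 1. The 6 include both S100a11 and S100a11-ps, by its name a pseudogene, and what their probes share in signal was not tested. S100a1 and S100g kept their calls in all 4 fits with 1 array left out. Of 4 nuclear factor I genes, transcription factors of late fetal development, Nfix and Nfic were higher and Nfib was lower. Nfix read -2.89 and -2.88 at E11.5, 1.73 and 1.12 at P0, and 3.25 on both arrays of P0 non-progenitors (difference 4.31 ± 0.28 SE, adjusted p = 0.00116 by limma). The second Nfix probe, detected on all 4 arrays, differed by 1.64, so the size of the rise is not settled. The Nfib probes detected on both E11.5 arrays differed by -2.27, -2.57, -1.79 and -1.01. The 1 Nfib probe that went the other way, by 1.04, was not detected at E11.5.

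Of 19 protocadherin beta genes 5 were higher and none was lower, with a median of 2.524. These genes belong to 1 family, and what their probes share in signal was not tested. Of 20 hnRNP genes, which encode nuclear RNA-binding proteins, 4 were lower and none was higher (Hnrnpc, Hnrnph1, Hnrnpf and Hnrnpm), with a median of -0.301. Among all genes with a mean level above 4, 11.3% were lower and the median was -0.199. The hnRNP genes were not sorted by level, so what brightness adds to their count was not tested. Ribosomal protein genes had 1 higher and 1 lower call of 79 and a median of 0.011.

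Sex-linked transcripts differed between replicates of a group. Ddx3y, on the Y chromosome, read -1.64 and 0.82 at E11.5, 0.10 and -6.25 at P0, and 0.03 and -6.78 in P0 non-progenitors. Eif2s3y read -1.22 and -3.48, then -2.59 and -6.39, then -1.49 and -6.92 in the same order. Xist, from the inactive X chromosome, read 3.98 and 2.15 at E11.5 and 2.83 and 3.79 at P0. In both P0 groups replicate 2 had the lower Y-linked and the higher Xist value, and none of the 6 sex-linked genes passed by limma between the ages (0 also at an unadjusted p under 0.05).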
